A study of Mus musculus with 16 samples.

Results

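The comparison described here set 3 arrays of hippocampal RNA from VP16-CREB mice against 3 arrays of RNA from their control littermates, 3 weeks after doxycycline (dox) was withdrawn. They were chosen by their sample titles, and they are 6 of the 16 arrays of the series. VP16-CREB is CREB, a transcription factor, fused to the part of the herpesvirus protein VP16 that activates transcription. The transgenic mice carried VP16-CREB under a tetO promoter on the C57BL/6J background, and the study's design calls them bitransgenic. The control littermates were labelled wild type, on the same background. Both groups were raised with dox and were 6 weeks old. Each array held 1 pool of hippocampal RNA from 3 to 4 mice alike in age, sex and genotype, so a replicate was a pool and the spread between single mice was not measured. The line that drives the tetO promoter, and so the cells that make VP16-CREB, is not given in the sources used here. Values of 2 VP16-CREB and 2 control pools taken 1 week after dox withdrawal, from mice of 3 weeks, are set beside some results. The series also holds 3 pools from mice with A-CREB, an inhibitor of CREB, and 3 from their control littermates, all 6 weeks old. Those pools are not described here, but they entered the estimate of spread and the choice of probe sets tested. The pools are numbered as their labels number them, and every set of 3 values below is in the order of pools 1, 2 and 3.

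CREB binds the cAMP response element, TGACGTCA, and activates transcription once it is phosphorylated in response to cAMP or calcium. The VP16 domain activates transcription without that signal, so that genes with a reachable CREB site can be driven while the transgene is on. The hippocampus holds the granule neurons of the dentate gyrus, the pyramidal neurons of CA1 to CA3, interneurons and glia, and an array of the whole tissue reads all of them at once. A change in such an array can come from fewer or more cells of a type or from less or more RNA per cell, which cannot be told apart here.

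A value is the deposited intensity of a probe set, on a linear scale that the authors had set to a common trimmed mean of 500 on each array. Differences are log2(intensity + 10), VP16-CREB minus control, and a fold is of the intensity plus 10, which understates the change of dim genes. A probe set was called at a Benjamini-Hochberg adjusted p under 0.05 over the 27044 probe sets tested with limma, on the spread between pools. The median intensity of the 6 arrays lay between 118.9 and 129.3. Creb1, the gene the transgene is built from, checked the labels: its probe set with the largest difference read 67.3, 32.2 and 61.2 in the control pools and 1139.9, 1097 and 1266 in the VP16-CREB pools (log2 difference 4.26 ± 0.45 SE, adjusted p = 6.1e-05). Another of its 5 probe sets was called (2.27, adjusted p = 0.00201), and the other 3 were at 0.14, -0.22 and -0.12 with no call. Which of them read the transgene was not examined. In all, 1062 probe sets were called (3.93% of those tested), 886 higher (3.28%, 658 genes) and 176 lower (0.651%, 137 genes). Of the higher ones 599 were at least 2-fold and 206 at least 4-fold, and of the lower ones 48 and 3. The pools of both groups did not overlap in any called probe set, as held for 14.9% of all probe sets tested in the higher and 12.8% in the lower direction. Of the genes called higher, 480 (72.9%) stood outside the immune genes and the CREB target genes as listed here, and of those called lower 131 (95.6%). The 2 lists held 70 and 49 genes, with some name prefixes added, and genes of leukocytes such as Dock2 and Ptpn6 counted as outside. The same share over all tested genes was not counted, so these shares do not say what kind of gene rose or fell. The genes that rose were dim in the controls, with a median control mean of 175.2, while those that fell had a median of 801.9. Many calls were near the threshold: 430 of the 798 called higher with a symbol (53.9%) and 36 of the 154 called lower (23.4%) were still called whichever pool was left out. Where a call is said below to be lost without some pools, it was lost when any 1 of them was left out of the fit, and the highest adjusted p over the 6 fits that left out a pool of these groups is given.

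The largest fall was at Dsp, which encodes desmoplakin, the protein that ties desmosomes to intermediate filaments and that marks granule neurons in the hippocampus. Dsp read 808, 936 and 737 in the control pools and 236, 196 and 130.2 in the VP16-CREB pools, a 4.33-fold fall (log2 difference -2.11 ± 0.29 SE, adjusted p = 0.000581). Its other probe set fell as well, by 1.77 on the log2 scale (adjusted p = 0.00571). Rasl10a, a small GTPase of the Ras family, read 1148, 1146 and 1159 in the control pools and 323, 245 and 245 in the VP16-CREB pools (4.16-fold lower; log2 difference -2.06 ± 0.20 SE, adjusted p = 2.85e-05). The control pools lay close together, and no VP16-CREB pool came near them. Lct, lactase, whose transcript is a granule neuron marker in brain, read 773, 1000.3 and 779 in the control pools against 289, 287 and 262 (log2 difference -1.56 ± 0.17 SE, adjusted p = 7.54e-05). Prox1, the homeobox factor that sets granule neuron identity, read 413, 368 and 372 in the control pools against 177, 151 and 158 (2.29-fold lower; log2 difference -1.20 ± 0.15 SE, adjusted p = 0.000268). All 3 probe sets of Prox1 were called lower, and so was Prox1os, transcribed from its opposite strand (-1.20 ± 0.20 SE, adjusted p = 0.00324). Whether the Prox1 and Prox1os probe sets each read 1 transcript was not examined. Plk5, a polo-like kinase gene expressed in granule neurons, read 188, 199 and 215 in the control pools and 20.1, 105 and 84.2 in the VP16-CREB pools (log2 difference -1.61 ± 0.41 SE, adjusted p = 0.0421). The VP16-CREB pools of Plk5 spread widely, with pool 1 far below the others, and the call was lost without control pools 1, 2 and 3 or VP16-CREB pools 1 and 3 (highest adjusted p 0.13).

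A further 6 of the 20 largest falls were C1ql2, C1ql3, Lrrtm4, Stxbp6, Lzts3 and Doc2b, described together here for what they are known to do at synapses, with no test of that grouping. C1ql2 and C1ql3 encode secreted C1q-like proteins that sit at synapses, C1ql2 at those of the granule neurons' mossy fibres. C1ql2 read 1198, 1082 and 1049 in the control pools and 263, 352 and 338 in the VP16-CREB pools (3.44-fold lower; log2 difference -1.78 ± 0.31 SE, adjusted p = 0.00397). C1ql3 was the brightest of the 20, with 6573, 6996 and 6768 in the control pools and 2749.6, 2936 and 2756 in the VP16-CREB pools (2.40-fold lower; log2 difference -1.27 ± 0.25 SE, adjusted p = 0.00856). In both genes the groups lay far apart, although the other probe sets of C1ql3, at -1.01 and -1.04, did not pass the test. Lrrtm4, a leucine-rich postsynaptic adhesion protein, read 801, 813 and 782 and 208, 222 and 220.3 in the control and VP16-CREB pools (3.56-fold lower; log2 difference -1.83 ± 0.24 SE, adjusted p = 0.0004), with another probe set at -0.76 (adjusted p = 0.145). Stxbp6, amisyn, which binds the vesicle fusion machinery, read 3573, 3138 and 3418 in the control pools and 1108, 1181 and 1160.0 in the VP16-CREB pools (log2 difference -1.54 ± 0.20 SE, adjusted p = 0.000326). Lzts3, a protein of the postsynaptic density, read 3075, 3774 and 3317 against 1460.5, 1478 and 1324 (log2 difference -1.25 ± 0.16 SE, adjusted p = 0.000279). Doc2b, a calcium sensor for transmitter release, fell at both of its probe sets, from 1448, 1934 and 1546 to 796, 589 and 505 at the one with the larger change (log2 difference -1.38 ± 0.27 SE, adjusted p = 0.00978). Its VP16-CREB pools did not overlap the controls, and that call was lost without control pool 2 or VP16-CREB pool 3 (highest adjusted p 0.0623).

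Receptors and channels were also among the 20. Epha7, an ephrin receptor that acts in axon guidance, read 2437, 2166 and 2432 in the control pools and 931, 1063 and 1023 in the VP16-CREB pools (log2 difference -1.21 ± 0.16 SE, adjusted p = 0.000545). All 4 of its probe sets were below the controls, of which 2 passed the test. Npy5r, a receptor for neuropeptide Y, read 675, 484 and 748 in the control pools and 226, 291 and 265 in the VP16-CREB pools (log2 difference -1.24 ± 0.26 SE, adjusted p = 0.0152), and that call was lost without control pools 1 and 3 or VP16-CREB pools 1 and 3 (highest adjusted p 0.0773). Chosen after its values were seen, the related receptor Npy1r also fell (log2 difference -0.95 ± 0.18 SE, adjusted p = 0.00856), while the peptide Npy itself rose (log2 difference 1.00 ± 0.21 SE, adjusted p = 0.0136), a call lost without control pools 1 and 3 or VP16-CREB pools 1 and 3 (highest adjusted p 0.071). Npy2r was at -0.64 (adjusted p = 0.249). Trpc6, a cation channel, read 181, 155 and 194 against 38.5, 79.4 and 59.0 (log2 difference -1.48 ± 0.30 SE, adjusted p = 0.0129) and lost its call without control pools 1 and 3 or VP16-CREB pool 1 (highest adjusted p 0.0607). Wdr60, part of the dynein motor of cilia, was at -1.33 ± 0.23 SE (adjusted p = 0.0036).

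Some of the 20 falls rested on 1 probe set, and those of Traip and Nucks1 were dim, with control means of 108 and 92.8. Nucks1, a nuclear protein that binds DNA, fell at 1 of its 6 tested probe sets (-1.70, adjusted p = 0.0497), and the other 5 lay between -0.22 and 0.20 with no call. The call at Nucks1 was lost without control pools 1 and 2 or VP16-CREB pools 1 and 2 (highest adjusted p 0.202). Sf1, a splicing factor that binds the branch point, fell at 1 of 4 (-1.49, adjusted p = 0.0462), with the other 3 between -0.20 and 0.23. That call of Sf1 was lost without control pools 2 and 3 or VP16-CREB pools 1, 2 and 3 (highest adjusted p 0.205). Traip, a ubiquitin ligase gene, was at -1.71 (adjusted p = 0.0259) and at -0.48 with no call at its other probe set, and it lost the first call without control pools 1, 2 and 3 or VP16-CREB pool 1 (highest adjusted p 0.108). Sntb2, a syntrophin of the dystrophin complex, was at -1.26 (adjusted p = 0.0438), with 2 other probe sets at -0.14 and -0.59, and lost its call without control pools 1 and 3 or VP16-CREB pools 1 and 3 (highest adjusted p 0.201). Of the 20 falls, these 4 and Plk5, Trpc6, Doc2b and Npy5r were lost without at least 1 pool, and the other 12 were not.

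**Figure D1:**
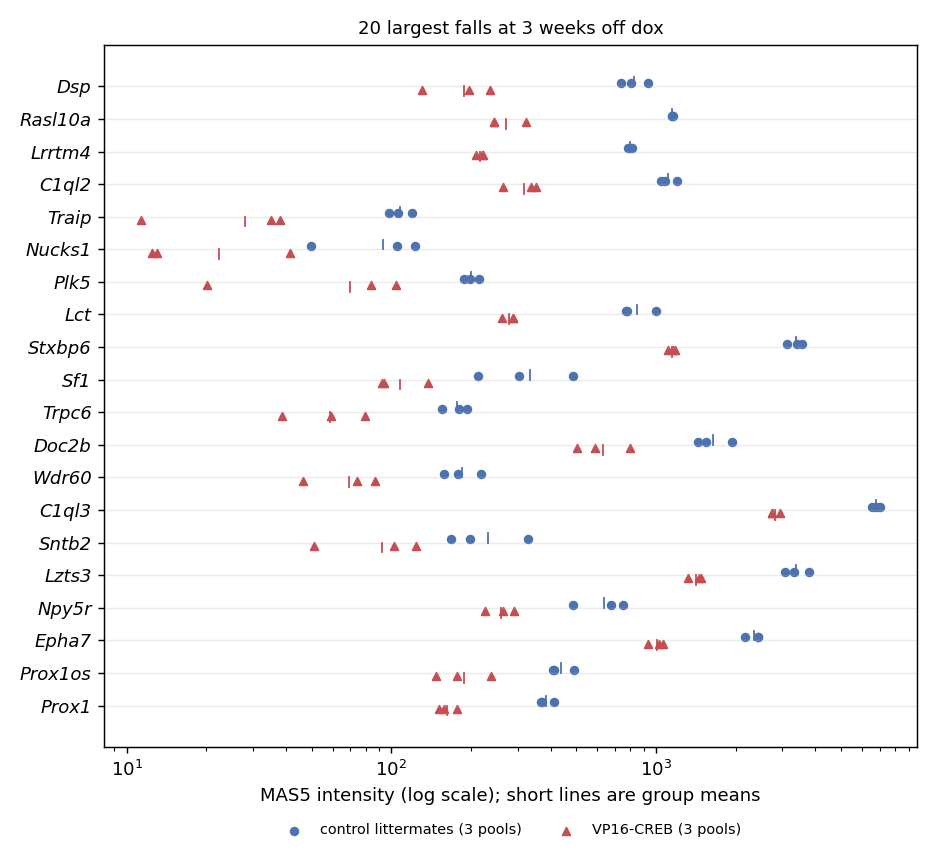
Intensity (log scale) of the 20 genes with the largest falls, for each of the 3 control littermate pools and the 3 VP16-CREB pools at 3 weeks off dox, in order of the log2 difference. The pools of both groups do not overlap in any of the 20, a condition of the choice, and C1ql3 is the brightest.

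Further falls, chosen after their values were seen, were of genes for guidance, membrane contact and signalling in neurons. Sema5a, a semaphorin, fell (log2 difference -1.08 ± 0.17 SE, adjusted p = 0.00152), as did Gsg1l, a subunit that travels with AMPA receptors (log2 difference -1.09 ± 0.18 SE, adjusted p = 0.0025), and Jph3, a junctophilin that ties the endoplasmic reticulum to the cell membrane (log2 difference -1.02 ± 0.19 SE, adjusted p = 0.00762). Smad3, a mediator of TGF-beta signals, fell (log2 difference -0.94 ± 0.16 SE, adjusted p = 0.00388). Cemip, a hyaluronan-degrading protein, fell (log2 difference -1.05 ± 0.14 SE, adjusted p = 0.00062). These 5 calls were kept whichever pool was left out. Kcnd2, the Kv4.2 potassium channel, was called lower at 3 probe sets, by 0.83 to 0.89 on the log2 scale (adjusted p of 0.0342 to 0.0432). Each call of Kcnd2 was lost without at least 5 of the 6 pools (highest adjusted p 0.188). Gabrd, the delta subunit of the GABA-A receptor, was at -0.89 (adjusted p = 0.0202) and was lost without control pools 1, 2 and 3 or VP16-CREB pools 2 and 3 (highest adjusted p 0.0989).

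Markers of the neuron types moved in the same pools. Of 10 markers of dentate granule neurons 7 fell (Prox1, C1ql2, Dsp, Calb1, Plk5, Lct and Stxbp6), or 70.0%, against 0.856% over all genes tested. The summed intensity of the 10 went from 15672 to 15783 in the control pools to 6384 to 7952 in the VP16-CREB pools. Of these 7, 6 are among the genes described above, so the sum does not add to them. None of 7 markers of CA1 pyramidal neurons passed the test, and 6 were lower at an unadjusted p under 0.05, with sums of 14357 to 15276 in the control and 9390 to 10516 in the VP16-CREB pools. Of 9 markers of CA3 and CA2 pyramidal neurons 1 fell (11.1%), Nptx1 (-0.75, adjusted p = 0.0287), and the sums were 19872 to 22945 and 13835 to 16195. Nptx1 lost its call when any 1 of the 6 pools was left out (highest adjusted p 0.129). The sums of all 3 lists did not overlap between the groups, as held for 12.8% of all probe sets tested in the lower direction. None of 10 markers of neurons in general was called, and their sums overlapped, at 95588 to 130209 and 81942 to 110010. Of 10 interneuron markers 2 rose, Npy and Slc32a1, the vesicular GABA transporter (log2 difference 1.23 ± 0.12 SE, adjusted p = 3.34e-05), while Gad1, Pvalb and Sst were at 0.05, 0.04 and 0.18 with no call. Of the 10, 9 were above 0. Their sums were 36723 to 41941 in the control and 42317 to 49155 in the VP16-CREB pools, the opposite direction to the granule and pyramidal lists. These sums came close to each other, and 14.9% of all probe sets tested also did not overlap in the higher direction. The part of the number of neurons of each type in the falls was not tested.

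Outside the immune and CREB target genes, the largest rise was at Tent5c, a poly(A) polymerase gene. Tent5c read 74.8, 9.96 and 50.3 in the control pools and 421, 559 and 740.2 in the VP16-CREB pools (12.2-fold higher; log2 difference 3.61 ± 0.46 SE, adjusted p = 0.000316). The control pools were near the floor of the array and spread widely there, so that this fold and those of other dim genes are rough. Of the 20 largest rises 8 (AA467197, Bcl3, Dock2, Fst, Ghsr, Milr1, Myo1f and Socs3) passed the filter on low values only through the VP16-CREB pools of 3 weeks, so that they had to be high there to be tested, as held for 94 of all 886 called higher and, through the controls of 3 weeks, for 4 of the 176 called lower (Traip and Nucks1 among the 20 falls). Protease inhibitors and a cross-linking enzyme were among the 20 largest rises. Serpinf2, the plasmin inhibitor alpha-2-antiplasmin, read 11.95, 11.24 and 42.99 and 280.4, 241 and 347 in the control and VP16-CREB pools (log2 difference 3.35 ± 0.36 SE, adjusted p = 7.31e-05). A2m, the broad protease inhibitor alpha-2-macroglobulin, read 132, 179 and 172 in the control pools and 1241, 1588 and 1349.9 in the VP16-CREB pools (8.22-fold higher; log2 difference 3.04 ± 0.32 SE, adjusted p = 6.9e-05). A2m was well measured in both groups, and its lowest VP16-CREB pool was far above the highest control. Tgm1, a transglutaminase that cross-links proteins, read 13.5, 43.9 and 7.38 against 298, 239.6 and 229 (log2 difference 3.24 ± 0.48 SE, adjusted p = 0.00127). Chil1, a secreted chitinase-like protein known from reactive astrocytes, read 241, 234 and 155 in the control pools and 1290.2, 1675 and 1408 in the VP16-CREB pools (6.74-fold higher; log2 difference 2.75 ± 0.26 SE, adjusted p = 2.33e-05).

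Ch25h makes 25-hydroxycholesterol, and Gpr183 is a receptor for a further product of that oxysterol. Ch25h read 80.5, 101 and 58.7 in the control pools and 481, 569.8 and 774 in the VP16-CREB pools (6.86-fold higher; log2 difference 2.78 ± 0.24 SE, adjusted p = 1.39e-05). Gpr183 read 12.7, 15.8 and 39.2 and 187, 219 and 340.3 (log2 difference 3.03 ± 0.48 SE, adjusted p = 0.00185), although its other probe set was at 0.49 with no call. Among other receptors and transporters, S1pr3, a receptor for sphingosine 1-phosphate, rose at all 3 of its probe sets, by 2.41 to 2.76 on the log2 scale. The largest S1pr3 difference (adjusted p = 0.0333) was lost without control pools 1 and 2 or VP16-CREB pools 1, 2 and 3 (highest adjusted p 0.144), and the other 2 were not lost without any pool. Ghsr, the ghrelin receptor, read 20.3, 9.24 and 24.4 against 177, 132 and 188 (log2 difference 2.68 ± 0.25 SE, adjusted p = 2.42e-05). Slc15a3, a lysosomal peptide transporter, read 54.2, 36.9 and 70.5 against 334, 336 and 489 (log2 difference 2.65 ± 0.24 SE, adjusted p = 1.39e-05). In Ch25h, Gpr183, Ghsr and Slc15a3 the 3 control pools were dim and all 3 VP16-CREB pools lay above them, while 1 of the called S1pr3 probe sets was brighter, at 437, 365 and 489 in the control pools.

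Regulators of transcription and signalling were the next group. Socs3, an inhibitor of JAK signalling, read 10.4, 23.8 and 19.4 in the control pools and 112, 181 and 359 in the VP16-CREB pools (log2 difference 2.91 ± 0.46 SE, adjusted p = 0.0018). Its 2 other probe sets were at 2.02 (called) and 1.41 (adjusted p = 0.106). Bcl3, which binds NF-kappa-B, read 5.48, 12.1 and 1.99 against 109.9, 99.5 and 118 (log2 difference 2.89 ± 0.39 SE, adjusted p = 0.000568). Tgif1, a homeobox repressor of TGF-beta signals, read 36.7, 6.44 and 66.0 against 248, 258 and 295 (log2 difference 2.83 ± 0.42 SE, adjusted p = 0.00113). The 3 were at or near the floor in the controls. Fst, follistatin, which binds activin, rose at both of its probe sets, by 3.00 and 1.07 (adjusted p = 0.02 and 0.0202). The larger Fst call was lost without control pools 2 and 3 or VP16-CREB pools 2 and 3 (highest adjusted p 0.098), and the smaller one without control pools 1 and 3 or VP16-CREB pools 1 and 3 (highest adjusted p 0.0948). S100a4, a calcium binding protein, read 62.7, 95.6 and 96.4 and 859, 651 and 483 (log2 difference 2.81 ± 0.31 SE, adjusted p = 0.000102).

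The rest of the 20 were Dock2, Ptpn6, Myo1f, Milr1 and AA467197. Dock2 activates Rac in leukocytes, Ptpn6 is a tyrosine phosphatase of blood cells, Myo1f a myosin of leukocytes and Milr1 an inhibitory receptor of the immunoglobulin family. The lists of immune genes did not hold these 4, and they are described as chosen. Dock2 read 29.0, 13.1 and 10.9 against 152, 241 and 288 (log2 difference 3.11 ± 0.38 SE, adjusted p = 0.000238), Ptpn6 83.7, 67.9 and 48.5 against 344, 547 and 653 (log2 difference 2.75 ± 0.42 SE, adjusted p = 0.00138). The differences of Myo1f, Milr1 and AA467197 were 2.83, 2.65 and 2.60 (adjusted p = 0.0036, 0.000241 and 0.0022). Of 9 microglia markers 8 rose (88.9%, against 4.6% over all genes tested), Trem2 the most (2.84) and P2ry12 with no call (0.42). The summed intensity of the 9 was 7351 to 7533 in the control and 16667 to 20825 in the VP16-CREB pools. The part of microglia in these rises was not tested.

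**Figure D2:**
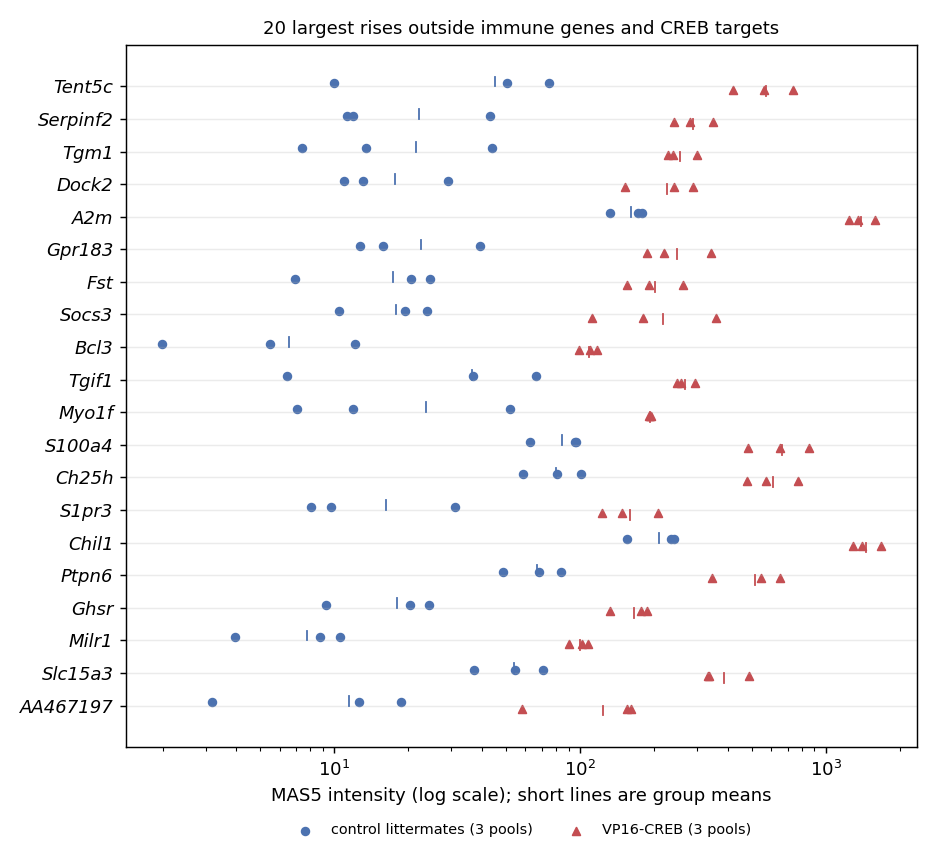
Intensity (log scale) of the 20 genes with the largest rises outside the immune and CREB target genes, for each of the 3 control littermate pools and the 3 VP16-CREB pools at 3 weeks off dox, in order of the log2 difference. A2m and Chil1 are the brightest in the VP16-CREB pools, and most of the others are under 100 in the control pools, where the spread is wide.

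Beyond single genes, 35 lists of genes were counted, each gene at its probe set of highest mean. Over all 12732 genes taken this way, 586 were called higher (4.6%) and 109 lower (0.856%), and the median difference was near 0, with quartiles of -0.159 and 0.217. Over the 1181 listed genes 117 were higher (9.91%) and 20 lower (1.69%), with a median of 0.072. By theme, 26 of 237 metabolic genes were higher and none lower, and 18 of 146 genes of the extracellular matrix and junctions were higher and 6 lower. Of 192 transcription factors and chromatin genes 6 were higher (3.12%) and 2 lower (1.04%), shares near those over all genes. Of 398 signalling genes 45 were higher (11.3%) and 12 lower (3.02%), and of 208 other genes of cell biology 22 were higher (10.6%) and none lower. Genes called only at another of their probe sets are outside these counts, among them Odc1, Timp2, Gng4, Fgfr1, Il13ra1 and Tln1 (0.79, 1.26, 0.77, 0.64, 1.11 and 1.48) and Camk2n1 and Camkk2 (-0.67 and -0.59). Of these 8, Gng4 and Tln1 kept their calls whichever pool was left out and the others did not, with adjusted p of up to 0.17.

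**Figure D3:**
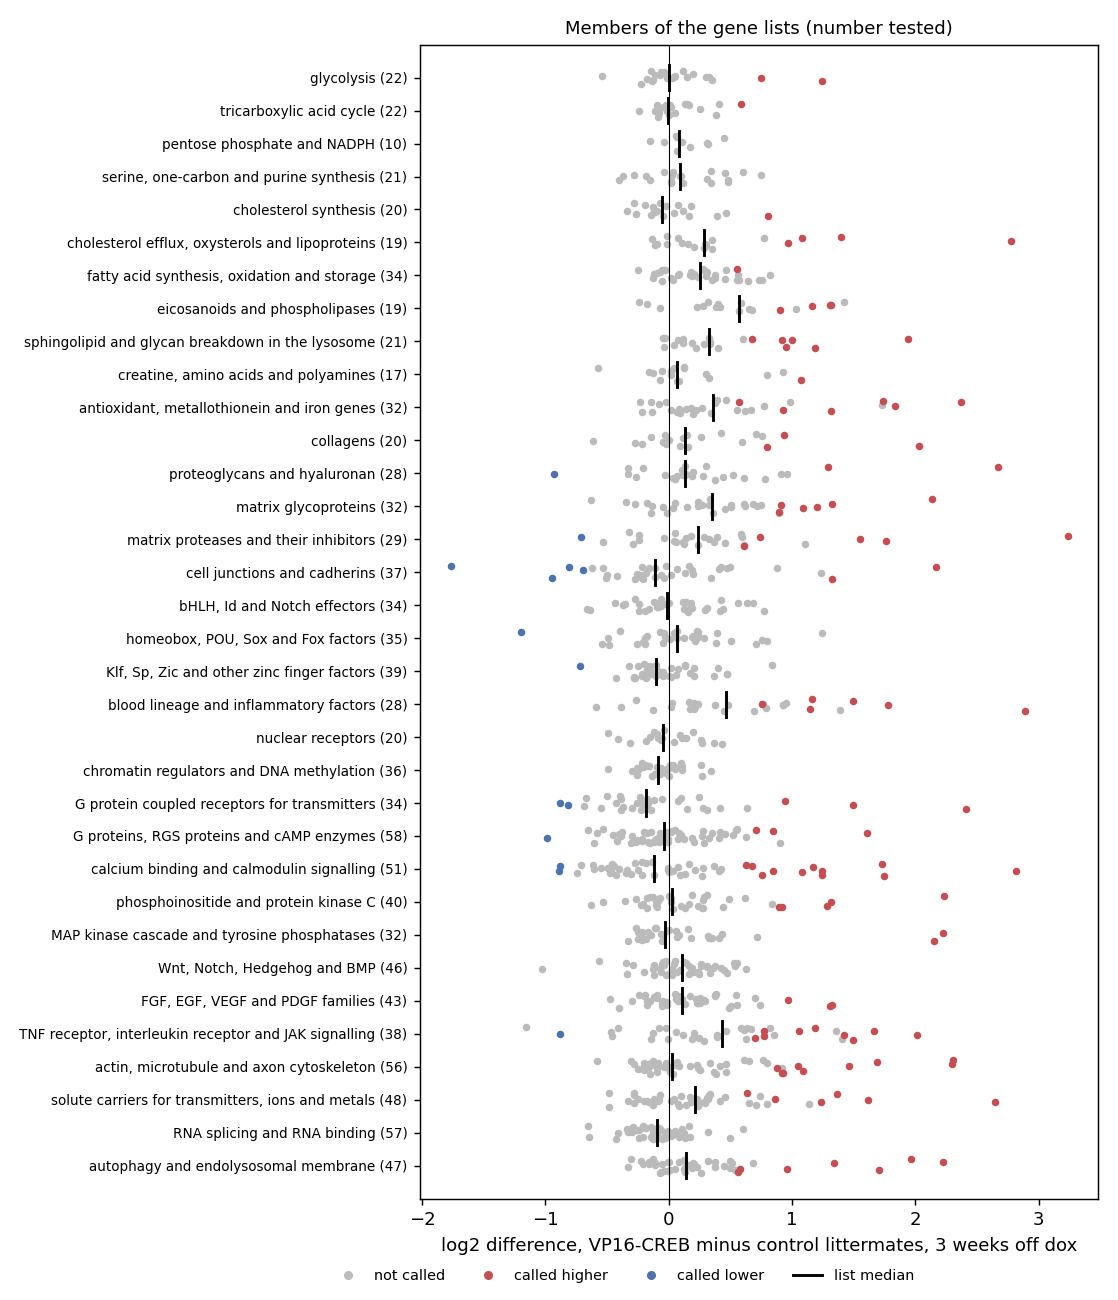
The log2 difference between VP16-CREB and control littermate pools at 3 weeks off dox for each tested member of the lists described, with the number tested in brackets, called members in colour and the list median as a bar. Called members lie mostly to the right, and the junction list holds the most to the left, with 4.

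The core of energy metabolism held few calls. Of 22 glycolysis genes 2 rose (9.1%, against 4.6% over all genes), with a list median of 0.00. They were Hk2, a hexokinase (193, 238 and 197 in the control pools, 422, 540.3 and 570.4 in the VP16-CREB pools; log2 difference 1.24 ± 0.22 SE, adjusted p = 0.00406), and Pfkfb3, which makes an activator of phosphofructokinase (0.75, adjusted p = 0.013). The Hk2 pools did not overlap, and Pfkfb3 lost its call without control pool 3 or VP16-CREB pool 3 (highest adjusted p 0.0848). Aldoc, an aldolase made by astrocytes, is not in this count, since its brightest probe set was at 0.05, but another was called (1.12, adjusted p = 0.00158) and kept its call whichever pool was left out. Of 22 genes of the tricarboxylic acid cycle 1 rose, Suclg2 (0.59, adjusted p = 0.0316), a subunit of succinyl-CoA ligase, and that call was lost without control pools 1, 2 and 3 or VP16-CREB pools 1 and 3 (highest adjusted p 0.174). None of 10 genes of the pentose phosphate path and none of 21 of serine, one-carbon and purine synthesis was called in either direction with limma, and 1 and 4 of them had an unadjusted p under 0.05. Tkt and Taldo1, the brightest of the pentose phosphate genes, were at -0.04 and 0.06, and Paics and Adss of purine synthesis at 0.02 and -0.37. Of 17 genes of creatine, amino acids and polyamines 1 rose, Sat1, which acetylates polyamines (1494, 1905 and 1638 against 3381, 3492 and 3718; log2 difference 1.07 ± 0.17 SE, adjusted p = 0.00187).

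Cholesterol synthesis and cholesterol transport were counted apart. Of 20 synthesis genes 1 rose, Ebp, a sterol isomerase (0.81, adjusted p = 0.0269), with a list median of -0.06, and the call was lost when any 1 of the 6 pools was left out (highest adjusted p 0.121). Of 19 genes of efflux, oxysterols and lipoproteins 4 rose, with a list median of 0.28, which was 21.1% of the list against 4.6% over all genes. Beside Ch25h these were Apoc1, an apolipoprotein (26.7, 63.8 and 99.4 in the control pools, 154, 218 and 135 in the VP16-CREB pools; adjusted p = 0.0455), Npc2, which moves cholesterol out of the lysosome (2408, 1891 and 2610.5 and 3582, 5302 and 6005; adjusted p = 0.0357), and Abca1, a cholesterol efflux pump (1538, 1179.7 and 1655 and 1994, 3436 and 3309; adjusted p = 0.038). In all 3 the lowest VP16-CREB pool was nearer to the highest control pool than to the highest VP16-CREB pool. Apoc1 was lost without control pools 1 and 2 or VP16-CREB pools 1, 2 and 3 (highest adjusted p 0.189), Npc2 without control pools 1, 2 and 3 or VP16-CREB pools 2 and 3 (highest adjusted p 0.179) and Abca1 without control pools 1, 2 and 3 or VP16-CREB pools 2 and 3 (highest adjusted p 0.179), so that with single pools left out 1 to 3 of the 19 were called. Of 34 genes of fatty acid metabolism 1 rose, Elovl5, a fatty acid elongase (0.55, adjusted p = 0.0187), and 9 were higher at an unadjusted p under 0.05. The call of Elovl5 was lost without control pools 1 and 3 or VP16-CREB pools 1, 2 and 3 (highest adjusted p 0.101).

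Of 19 tested genes of lipid mediators 4 rose (21.1%, against 4.6% over all genes), with a list median of 0.57 and none lower. Hpgd, which inactivates prostaglandins, read 321, 291 and 329 in the control pools and 625, 782 and 1016 in the VP16-CREB pools (log2 difference 1.31 ± 0.21 SE, adjusted p = 0.00176). Lpcat2, which makes platelet-activating factor, read 357, 291 and 312 against 725, 799.7 and 895 (log2 difference 1.31 ± 0.18 SE, adjusted p = 0.00055). Ptger4, a prostaglandin E2 receptor, and Alox5ap, the partner of 5-lipoxygenase in leukotriene synthesis, were at 1.16 and 0.90 (adjusted p = 0.00525 and 0.00673). The 4 kept their calls whichever pool was left out. Of the list, 3 more genes, Alox12b, Ltb4r1 and Ptger2, did not pass the filter on low values.

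Lysosomal enzymes for sphingolipids and glycans were higher in 6 of 21 tested (28.6%), with a list median of 0.32 and none lower. Gusb, beta-glucuronidase, read 224, 252 and 250.1 in the control pools and 914, 882 and 1088 in the VP16-CREB pools (3.84-fold higher; log2 difference 1.94 ± 0.17 SE, adjusted p = 1.39e-05). Man2b1, lysosomal alpha-mannosidase, read 921, 933 and 998 against 1985, 2147 and 2392 (log2 difference 1.18 ± 0.19 SE, adjusted p = 0.00265). The 2 groups of pools lay far apart in both genes. Arsa, arylsulfatase A, rose as well (0.68, adjusted p = 0.00599), and these 3 calls held without any pool. Naglu, Hexa and Gla, at 1.00, 0.95 and 0.92, were called and then lost: Naglu without control pools 2 and 3 or VP16-CREB pools 1, 2 and 3 (highest adjusted p 0.11), Hexa without control pools 1 and 2 or VP16-CREB pools 2 and 3 (highest adjusted p 0.145) and Gla without control pools 1 and 2 or VP16-CREB pools 2 and 3 (highest adjusted p 0.0931).

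Of 32 antioxidant, metallothionein and iron genes 6 rose (18.8%), with a list median of 0.36, and the leading members belong to phagocytes. Cyba, Cybb and Ncf1 are subunits of the NADPH oxidase that makes superoxide. Cyba read 353, 362 and 354 in the control pools and 1807, 1834 and 2012 in the VP16-CREB pools (log2 difference 2.37 ± 0.24 SE, adjusted p = 5e-05). Cybb and Ncf1 were at 1.74 and 1.31 (adjusted p = 0.00328 and 0.000653). Slc11a1, a metal transporter of phagosomes, read 182, 127 and 139.7 against 532, 521 and 613 (log2 difference 1.84 ± 0.18 SE, adjusted p = 2.74e-05). The members that scavenge oxidants or metals were fewer: Mt2, a metallothionein (0.93, adjusted p = 0.0131), and Prdx4, a peroxiredoxin (0.57, adjusted p = 0.0448). Mt2 was lost without control pools 1 and 3 or VP16-CREB pool 1 (highest adjusted p 0.07) and Prdx4 when any 1 of the 6 pools was left out (highest adjusted p 0.193). The summed intensity of the microglia markers given above moved with this list and with the lysosomal one, and its part in them was not tested.

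**Figure D4:**
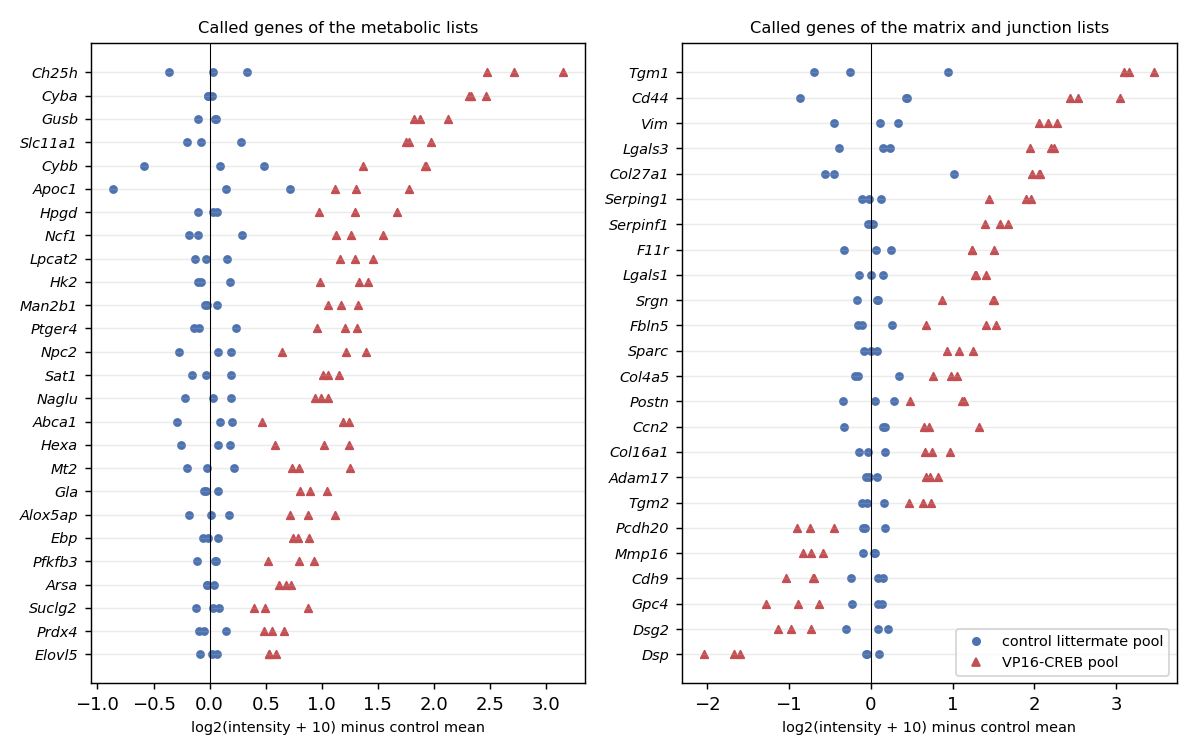
Each pool's log2(intensity + 10) minus the mean of the 3 control pools, for the called genes of the metabolic lists (left) and of the matrix and junction lists (right), with control littermate pools as circles and VP16-CREB pools as triangles. All 26 metabolic genes and 18 of the 24 others lie to the right, and Ch25h, Cyba, Tgm1 and Cd44 show the widest gaps.

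In the extracellular matrix, of 20 collagens 3 rose, Col27a1 (2.03), Col4a5 (0.93) and Col16a1 (0.79), with adjusted p of 0.0448, 0.0202 and 0.0325 and a list median of 0.13. Each of the 3 was lost without 1 pool or more, Col27a1 without control pools 1 and 2 or VP16-CREB pools 1, 2 and 3 (highest adjusted p 0.19), Col4a5 without control pools 1 and 2 or VP16-CREB pools 2 and 3 (highest adjusted p 0.104) and Col16a1 when any 1 of the 6 pools was left out (highest adjusted p 0.144), and 0 to 2 of the 20 were called with a single pool left out. Of 28 proteoglycan and hyaluronan genes 2 rose (7.1%) and 1 fell (3.6%), against 4.6% and 0.856% over all genes. Cd44, the hyaluronan receptor, read 224, 85.5 and 226 in the control pools and 934, 992 and 1419.7 in the VP16-CREB pools (6.35-fold higher; log2 difference 2.67 ± 0.33 SE, adjusted p = 0.000252). Srgn, a proteoglycan of secretory granules, rose (1.29, adjusted p = 0.00982), and Gpc4, a glypican of the neuronal surface, fell (-0.93, adjusted p = 0.0135). Bgn, biglycan, was not counted, but 2 of its other probe sets were called (2.16 and 1.41), of which the smaller kept its call whichever pool was left out and the larger was lost without control pools 1 and 2 or VP16-CREB pools 2 and 3 (highest adjusted p 0.0966). Srgn was lost without VP16-CREB pools 2 and 3 (highest adjusted p 0.0607) and Gpc4 without control pools 2 and 3 or VP16-CREB pools 1 and 3 (highest adjusted p 0.067).

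Of 32 matrix glycoproteins 6 rose (18.8%), with a list median of 0.35 and none lower. Lgals3 and Lgals1 are galectins, which bind galactosides on cell surface and matrix proteins. Lgals3 read 96.8, 63.6 and 103 in the control pools and 445, 360.0 and 434 in the VP16-CREB pools (log2 difference 2.13 ± 0.25 SE, adjusted p = 0.000177). Lgals1 read 1218, 1101 and 1352 against 2966, 3241 and 2976 (log2 difference 1.32 ± 0.20 SE, adjusted p = 0.00155). Sparc, a collagen binding protein of glia and vessels, read 4500.1, 4743 and 4239 against 10713, 8604 and 9517 (log2 difference 1.09 ± 0.21 SE, adjusted p = 0.00682). The pools of both groups were well apart in all 3. Fbln5, a protein of elastic fibres, was at 1.20 (adjusted p = 0.00894) and was lost without VP16-CREB pools 2 and 3 (highest adjusted p 0.057). Postn and Ccn2, which are made by fibroblasts, were at 0.91 and 0.89, and were lost without control pools 1, 2 and 3 or VP16-CREB pools 2 and 3 (highest adjusted p 0.21) and without control pools 1, 2 and 3 or VP16-CREB pools 2 and 3 (highest adjusted p 0.168). The 10 markers of meningeal and perivascular fibroblasts held no call, with 1 higher at an unadjusted p under 0.05, and their sums overlapped, at 5382 to 6759 in the control and 5227 to 5996 in the VP16-CREB pools.

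Of 29 matrix proteases and their inhibitors 5 rose (17.2%) and 1 fell (3.4%). Beside Tgm1, members of the serpin family led. Serping1, the C1 inhibitor, read 230.2, 216 and 255 in the control pools and 652, 895 and 931 in the VP16-CREB pools (log2 difference 1.76 ± 0.17 SE, adjusted p = 2.94e-05). Serpinf1, the secreted protein PEDF, read 632, 619 and 604 against 1861, 1649.6 and 1998 (log2 difference 1.55 ± 0.21 SE, adjusted p = 0.000648). No pools overlapped. Of the proteases, Adam17, which sheds TNF from the cell surface, rose (0.74, adjusted p = 0.0111), and Mmp16, a membrane metalloprotease, fell (-0.71, adjusted p = 0.0482). Tgm2, a second transglutaminase, was at 0.61. Adam17 was lost without control pool 1 or VP16-CREB pool 2 (highest adjusted p 0.0577), Mmp16 when any 1 of the 6 pools was left out (highest adjusted p 0.201) and Tgm2 without control pools 1 and 2 or VP16-CREB pools 2 and 3 (highest adjusted p 0.096).

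Junction genes moved both ways, with 2 of 37 higher and 4 lower (10.8%, against 0.856% over all genes) and a list median of -0.11. Vim, the intermediate filament protein of glia and mesenchyme, read 1427, 959 and 1659 in the control pools and 5496, 6417 and 5923 in the VP16-CREB pools (log2 difference 2.17 ± 0.25 SE, adjusted p = 0.00016). F11r, the junction protein JAM-A, read 208, 182 and 136 against 420.3, 421 and 509 (log2 difference 1.33 ± 0.23 SE, adjusted p = 0.00359). With Dsp, the genes that fell were Dsg2, a desmosomal cadherin (-0.95), Cdh9, a cadherin of mossy fibre synapses (-0.81), and Pcdh20, a protocadherin (-0.70), with adjusted p of 0.0133, 0.0157 and 0.036. Dsg2 was lost without control pools 1 and 3 or VP16-CREB pool 2 (highest adjusted p 0.0762), Cdh9 without control pools 1 and 3 or VP16-CREB pool 3 (highest adjusted p 0.1) and Pcdh20 without control pools 1, 2 and 3 or VP16-CREB pools 1 and 3 (highest adjusted p 0.187).

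Most transcription factors did not pass the test. Prox1 was the only one called among 35 homeobox, POU, Sox and Fox genes. Bcl11b, a zinc finger factor of hippocampal and cortical projection neurons, was the only one called among 39 Klf, Sp, Zic and related genes (3879, 3449 and 3867 in the control pools, 2156, 2329 and 2293 in the VP16-CREB pools; log2 difference -0.72 ± 0.18 SE, adjusted p = 0.045). Its call was lost when any 1 of the 6 pools was left out (highest adjusted p 0.159). No gene was called with limma among 34 bHLH, Id and Notch effectors, 20 nuclear receptors and 36 chromatin regulators, and 7, 1 and 2 of them had an unadjusted p under 0.05. Another probe set was called for Sox9, Zfpm2 and Hlf, which are not in these counts. Of 28 blood lineage and inflammatory factors 6 were higher (21.4%), with a list median of 0.46. Beside Bcl3 they were Ikzf1, a lymphoid and myeloid factor (102, 64.2 and 72.8 against 264, 299 and 314; log2 difference 1.77 ± 0.31 SE, adjusted p = 0.00456), Cebpa, a myeloid factor (1.15, adjusted p = 0.00671), Spi1, the PU.1 factor of microglia (1.16, adjusted p = 0.034), Nfkbie, an NF-kappa-B inhibitor (1.49, adjusted p = 0.0339), and Sall1, a factor of microglial identity (0.75, adjusted p = 0.0454). Spi1 was lost without control pools 1 and 2 or VP16-CREB pools 1, 2 and 3 (highest adjusted p 0.109), Nfkbie when any 1 of the 6 pools was left out (highest adjusted p 0.158) and Sall1 without control pools 1 and 2 or VP16-CREB pools 2 and 3 (highest adjusted p 0.217), and 3 to 6 of the 28 were called with a single pool left out.

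Among 34 G protein coupled receptors for transmitters 3 rose (8.8%) and 2 fell (5.9%), against 4.6% and 0.856% over all genes. Those that rose were S1pr3 and the purine receptors P2ry6 (85.5, 51.7 and 106 against 216, 225 and 277; log2 difference 1.49 ± 0.28 SE, adjusted p = 0.00599) and P2ry13 (0.95, adjusted p = 0.00899), both known from microglia. Those that fell were the serotonin receptors Htr1a (539, 711 and 602 in the control pools, 318, 433 and 255 in the VP16-CREB pools; adjusted p = 0.0151) and Htr1b (-0.82, adjusted p = 0.0154). A further probe set of Htr1b was at 1.03 with no call. P2ry13 was lost without VP16-CREB pools 2 and 3 (highest adjusted p 0.0617), Htr1a without control pools 2 and 3 or VP16-CREB pools 1 and 3 (highest adjusted p 0.0912) and Htr1b without control pools 1, 2 and 3 or VP16-CREB pool 3 (highest adjusted p 0.0844). Of 58 genes for G proteins, RGS proteins and cAMP enzymes 3 rose and 1 fell, shares of 5.2% and 1.7%. Of the adenylyl cyclases, Adcy7 rose (140.4, 122 and 82.6 against 329, 357 and 405; log2 difference 1.61 ± 0.20 SE, adjusted p = 0.000319) and Adcy1, the calcium-stimulated enzyme of neurons, fell (10631, 15019 and 10509 against 7729.9, 5051 and 5488; log2 difference -0.99 ± 0.21 SE, adjusted p = 0.0157). The call of Adcy1 was lost without control pool 2 or VP16-CREB pools 2 and 3 (highest adjusted p 0.0878). Rgs10 and Pde3b were at 0.84 and 0.71, and were lost without control pools 1 and 3 or VP16-CREB pool 3 (highest adjusted p 0.0773) and when any 1 of the 6 pools was left out (highest adjusted p 0.174).

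Calcium binding genes divided by kind. Of 51 tested 11 rose (21.6%) and 2 fell (3.9%), with a list median of -0.12, and 17 were lower at an unadjusted p under 0.05. Those that rose were mainly S100 proteins and annexins, which bind calcium at membranes. S100a6 read 394, 390.2 and 492 in the control pools and 1463, 1534 and 1345 in the VP16-CREB pools (log2 difference 1.75 ± 0.17 SE, adjusted p = 2.68e-05), and Anxa3 414, 420.3 and 455 and 1211, 1482 and 1691 (log2 difference 1.73 ± 0.21 SE, adjusted p = 0.000204). S100a10, Anxa2, Anxa4 and Anxa5 were at 1.24, 1.24, 1.17 and 1.08, and these and S100a4, S100a6 and Anxa3 kept their calls whichever pool was left out. S100a1, S100a16, Camk2n2 and Itpr2, at 0.63, 0.67, 0.76 and 0.85, were lost without at least 3 pools each, with adjusted p of up to 0.15, 0.162, 0.12 and 0.122. Both that fell are neuronal: Calb1, calbindin (-0.88, adjusted p = 0.0117), and Itpka, a kinase of inositol trisphosphate in dendritic spines (-0.89, adjusted p = 0.0149). Calb1 was lost without control pool 3 or VP16-CREB pools 2 and 3 (highest adjusted p 0.0762) and Itpka without control pool 2 or VP16-CREB pools 2 and 3 (highest adjusted p 0.0861).

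In the phosphoinositide list 5 of 40 rose (12.5%), among them Inpp5d, the SHIP1 phosphatase of blood cells (173, 229 and 134 against 418, 409.8 and 531; log2 difference 1.31 ± 0.24 SE, adjusted p = 0.00515), and Plce1, a phospholipase C (241, 237 and 229 against 461, 713 and 622; log2 difference 1.29 ± 0.20 SE, adjusted p = 0.00145). Plcb3, Plcd4 and Eif4ebp1 were at 2.23, 0.92 and 0.89 and were lost when any 1 of the 6 pools was left out (highest adjusted p 0.124), without control pools 1, 2 and 3 or VP16-CREB pools 2 and 3 (highest adjusted p 0.155) and without control pools 1 and 3 or VP16-CREB pools 1 and 2 (highest adjusted p 0.158). Of 32 MAP kinase and phosphatase genes 2 rose (6.2%), both phosphatases, Ptpn6 and Ptpn18 (2.15, adjusted p = 0.0355). Ptpn18 was lost without VP16-CREB pools 1, 2 and 3 (highest adjusted p 0.165). None of 46 genes of the Wnt, Notch, Hedgehog and BMP paths was called with limma, with 6 at an unadjusted p under 0.05. Of 43 growth factor genes 3 rose (7.0%, against 4.6% over all genes). Csf1, the growth factor of microglia and macrophages, read 571, 381 and 534 against 974, 887 and 1025 (log2 difference 0.96 ± 0.18 SE, adjusted p = 0.00709). Its receptor Csf1r read 3905, 3940.1 and 3773 against 9017, 10239 and 9973 (log2 difference 1.33 ± 0.24 SE, adjusted p = 0.0054). Axl, a receptor for Gas6 that acts in the uptake of dying cells, read 434, 453 and 394 against 962, 1046 and 1208 (log2 difference 1.30 ± 0.16 SE, adjusted p = 0.000283). The ligand and its receptor thus rose in the same pools, with no overlap in either, and the 3 calls held without any pool. No FGF, EGF, VEGF or PDGF gene was called at its brightest probe set.

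Genes of TNF receptor, interleukin receptor and JAK signalling, not all of them receptors, were higher in 9 of 38 tested (23.7%) and lower in 1. The list median was 0.43. Csf2rb, the shared receptor subunit for GM-CSF and IL-3, read 76.7, 54.2 and 60.6 in the control pools and 235, 239 and 411 in the VP16-CREB pools (log2 difference 2.01 ± 0.25 SE, adjusted p = 0.000244). Tnfaip8l2 and Tnfrsf13b were at 1.42 and 1.19 (adjusted p = 0.00421 and 0.00488), and these 3 calls held without any pool. Csf3r, Tnfrsf12a, Il4ra, Tnfrsf1b, Tnfrsf1a and Csf2ra, between 0.70 and 1.67, and Il1rap, which fell (-0.89), were lost without at least 2 pools each. Without VP16-CREB pool 3 only 3 of the 9 were called, and leaving out other single pools gave up to 8.

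The cytoskeleton genes that rose were those of actin and its partners. Of 56 tested 9 rose (16.1%), with a list median of 0.02 and none lower. Capg, which caps actin filaments in macrophages, read 113, 75.0 and 128 in the control pools and 468, 552 and 638 in the VP16-CREB pools (log2 difference 2.31 ± 0.24 SE, adjusted p = 5.11e-05). Lcp1, the plastin of leukocytes, read 149, 268 and 179 against 628, 614 and 690.4 (log2 difference 1.69 ± 0.19 SE, adjusted p = 0.000105), and Msn, moesin, 422, 454 and 501 against 1253, 1273 and 1300.0 (log2 difference 1.46 ± 0.15 SE, adjusted p = 6.51e-05). The pools of these 3 lay well apart. Was, Lsp1, Flna and Gsn were at 1.05, 1.09, 0.93 and 0.88 and were lost without at least 4 pools each, with adjusted p of up to 0.125, 0.152, 0.157 and 0.203. Neurofilament, tubulin, stathmin and axonal kinesin genes on the list held no call.

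Of 48 solute carriers and pumps 6 rose (12.5%) and none fell. Slc14a1, the urea transporter of astrocytes and red cells, read 450.2, 429 and 451 in the control pools and 1391, 1348 and 1405 in the VP16-CREB pools (3.07-fold higher; log2 difference 1.62 ± 0.13 SE, adjusted p = 5.5e-06). Slco2b1, an organic anion transporter, read 348, 286 and 294 against 584, 731 and 938 (log2 difference 1.23 ± 0.18 SE, adjusted p = 0.00127). The groups did not overlap in either, and the VP16-CREB pools of Slco2b1 spread more widely than those of Slc14a1. Slc7a7 (1.37), Slc1a4 (0.86) and Atp1b2 (0.63) were lost without control pools 1 and 2 or VP16-CREB pools 2 and 3 (highest adjusted p 0.109), without control pool 1 or VP16-CREB pool 1 (highest adjusted p 0.0549) and when any 1 of the 6 pools was left out (highest adjusted p 0.0954). Of 10 astrocyte markers 2 rose, Gfap (2.76) and Aqp4 (1.13), and 5 were higher at an unadjusted p under 0.05. Of the 10, 9 were above 0, with a list median of 0.56, and only the glutamate transporter Slc1a2 was below (-0.03). Aldoc and Sox9 were called at another probe set and are not among the 2. The summed intensity of the 10 was 61667 to 72870 in the control and 78229 to 98434 in the VP16-CREB pools. The call of Aqp4 was lost without VP16-CREB pool 3 (adjusted p 0.0594). The part of astrocytes in these rises was not tested.

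Of 47 genes of autophagy and endolysosomal membranes 7 rose (14.9%) and none fell. Gpnmb, a glycoprotein of phagocytes, read 77.6, 114 and 88.8 in the control pools and 419, 440.4 and 557 in the VP16-CREB pools (log2 difference 2.22 ± 0.31 SE, adjusted p = 0.000648). Laptm5, a lysosomal protein of blood cells, read 702, 572 and 585 against 2279, 2197 and 2883 (log2 difference 1.96 ± 0.31 SE, adjusted p = 0.00187), and Grn, progranulin, 1879.8, 1685 and 1891 against 4604, 6693 and 6853 (log2 difference 1.71 ± 0.20 SE, adjusted p = 0.000181). Rab7b, Lamp2, Snx5 and Rab31, at 1.34, 0.96, 0.58 and 0.56, were lost without at least 4 pools each, with adjusted p of up to 0.121, 0.0706, 0.14 and 0.156. None of the Atg, Ulk or LC3 family genes, which form the autophagosome, was called. None of 57 splicing and RNA binding genes was called with limma at its brightest probe set, with 6 at an unadjusted p under 0.05.

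Markers of the remaining cell types held few calls. Oligodendrocyte markers held no call in 9, with sums of 56120 to 73822 in the control and 54014 to 72924 in the VP16-CREB pools. Endothelial markers held none in 9, with sums of 4151 to 4519 and 4590 to 4712, and pericyte markers none in 10, with 7983 to 9036 and 9028 to 10458. Of 6 tested markers of border macrophages and monocytes 1 rose, Ms4a7 (1.16), and the sums were 511 to 573 and 719 to 794. That call was lost without control pools 1, 2 and 3 or VP16-CREB pools 2 and 3 (highest adjusted p 0.186). Only 2 of 19 markers of T, NK and B cells passed the filter on low values, and neither was called at its brightest probe set, with sums of 298 to 449 in the control and 592 to 659 in the VP16-CREB pools. Ighm, the heavy chain of IgM, was called at another probe set (1.20, adjusted p = 0.0361), a call lost without control pools 2 and 3 or VP16-CREB pools 1, 2 and 3 (highest adjusted p 0.166). Of 10 neutrophil markers 2 passed, of which Mpo rose (1.64) and S100a8 was at 0.36, with sums of 90 to 95 and 221 to 289. The choroid plexus, which can come along in dissection, held no call in 10 markers, of which 8 were below 0, with a list median of -0.54. Their sums overlapped, at 15770 to 37902 in the control and 7563 to 27487 in the VP16-CREB pools. The values varied within both groups, with Ttr at 14496, 35917 and 28096 in the control pools and 6438, 16841 and 25488 in the VP16-CREB pools.

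The CREB site was looked for in the promoters, shown here because the transgene binds it. The motif TGACGTCA, its own reverse complement, was searched in the 250 bases before the RefSeq start of each gene (GRCm38.p6), where a window was given for 10298 of the 12732 tested genes. It stood in 311 of these windows (3.02%), in 13 of 526 of the genes called higher (2.47%) and in 1 of 105 of those called lower (0.952%). The shorter TGACG or CGTCA, which the full motif contains, stood in 30.2% of all windows, 26.4% of those called higher (139 genes) and 11.4% of those called lower (12 genes). Of the 40 largest falls and rises only Ch25h had a window with the full motif. It is printed with 3 genes chosen after their values were seen, each 5′ to 3′ on the gene's strand with the motif in capitals.

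Ch25h: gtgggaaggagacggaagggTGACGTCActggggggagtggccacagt
Pcsk1: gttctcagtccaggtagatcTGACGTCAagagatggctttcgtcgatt
Trak1: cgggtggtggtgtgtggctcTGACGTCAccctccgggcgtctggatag
Hlf: tcggcgcgcggtgcgggcccTGACGTCAc

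The Ch25h sequence lies at chr19:34475182-34475229 on the minus strand, and its motif ends 54 bases before the start. Pcsk1, a convertase that processes neuropeptides, rose by 1.27 on the log2 scale, and its sequence lies at chr13:75089759-75089806 on the plus strand with the motif 71 bases before the start. Trak1, an adaptor for the transport of mitochondria, rose by 1.10 on that scale, and its sequence lies at chr9:121403369-121403416 on the plus strand with the motif 50 bases before the start. Hlf, a PAR bZIP factor, was the only gene called lower with the motif (-0.61), at chr11:90390918-90390946 on the minus strand, and there it stands 2 bases before the start. The call of Pcsk1 was lost without control pool 2 or VP16-CREB pools 2 and 3 (highest adjusted p 0.0908), that of Trak1 without control pools 1 and 3 or VP16-CREB pool 3 (highest adjusted p 0.0763) and that of Hlf without control pools 1, 2 and 3 or VP16-CREB pools 1 and 3 (highest adjusted p 0.113). A match is a description of the letters and was not tested as a site.

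At 1 week off dox fewer probe sets were called, 59 higher and 5 lower (0.237% of those tested), from 2 pools against 2 of mice of 3 weeks, so that time off dox, age and cohort cannot be told apart and fewer pools were compared. Of the 886 called higher at 3 weeks, 821 had the same direction at 1 week and 51 were called there, with a median 1 week difference of 0.52. Of the 176 called lower, 154 had the same direction and none was called, with a median of -0.296, where the median of all tested was 0.018. Among the 20 largest falls, 17 had the same direction at 1 week, and Traip, Nucks1 and Sf1 did not (0.797, 0.245 and 0.565). The 1 week controls of Traip and Nucks1 were near the floor, with means of 8.36 and 13.99. The median difference of the 20 falls was -1.48 at 3 weeks and -0.565 at 1 week. Of the falls Trpc6 and C1ql2 had the largest differences at 1 week, at -1.38 and -1.20 with no call, and Prox1 was at -0.13. Among the 20 rises, 19 had the same direction at 1 week, with medians of 2.83 and 1.13, and Socs3 did not (-0.10). S100a4 and Slc15a3 were called at 1 week as well (2.24 and 1.63, adjusted p = 0.0304 and 0.0381), as was Gusb (1.31, adjusted p = 0.0195). All 40 differences were smaller at 1 week, an order that choosing genes for their size at 3 weeks favours. Tested directly, the 3 week effect differed from the 1 week effect at 1 probe set of 27044 (0.0037%). That probe set has no gene symbol and was near the floor in the 1 week controls. None of the 40 was called (lowest adjusted p 0.202), so that none of these 40 effects is shown to differ between the times. An unadjusted p under 0.05 was found for 1349 of the 27044.

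**Figure D5:**
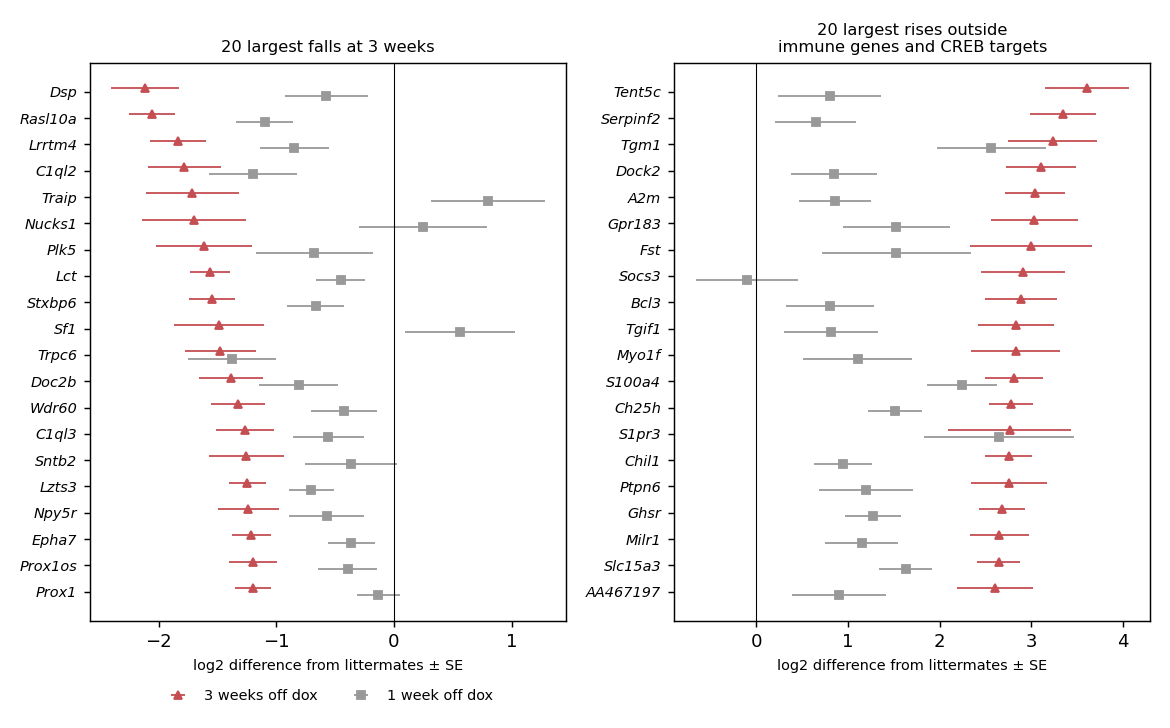
The log2 difference from littermates with its SE at 3 weeks (3 pools against 3) and at 1 week off dox (2 against 2), for the 20 largest falls and the 20 largest rises outside immune genes and CREB targets. The 1 week values lie closer to 0 in all 40 genes, and Trpc6 and S1pr3 show the smallest gaps.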

How the data were processed

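RNA of hippocampus was measured on Affymetrix Mouse Genome 430 2.0 arrays. The deposited values are intensities on a linear scale that the authors made with MAS5 (version not given in the sources used here), per the submitters' processing notes. MAS5 subtracts a mismatch signal, which makes dim values noisy. The number of arrays limits the precision. Without the 64 control probe sets, and on log2(intensity + 10), the 27044 probe sets above the median of all values (99.1) on at least 2 arrays were kept, of which 23141 carried 1 gene symbol in GEO's platform annotation. Groups came from the sample titles. All 16 arrays, A-CREB and 1 week ones included, were fitted together, each group with its own coefficient (limma 3.58.1 in R 4.3.3, lmFit and eBayes, two-sided), with 10 residual and 3.44 prior degrees of freedom, so that all groups share the estimate of spread. The test was also run on simulated data for the 3 week comparison, with 200 of 27044 features changed. Of these, 42 of 100 changed 2-fold and 84 of 100 changed 4-fold were called, so that many changes of 2-fold can be missed. The data held more calls (1062) than the simulation had changed features. The adjusted p depends on that share, so these rates need not hold for the data. The labels do not say that pools came from separate experiments, so p-values measure the spread between these pools.

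The named genes were drawn from called probe sets that have 1 symbol and whose pools do not overlap: the 20 largest falls, the 20 largest rises outside 2 lists and some name prefixes of immune genes and CREB targets, and per list up to 4 called members (or the 2 of highest mean where none was called), and Creb1. Others were named after their values were seen: called list members beyond those 4, the 3 further promoters, the further falls, and single cell type markers. The comparison, the lists and the rule were chosen with earlier results of these data known. Lists were counted at each gene's brightest probe set (highest mean), with no set test. 1 signalling list is in the totals over lists and is not reported here by itself. Promoters are those of RefSeq (GRCm38.p6).

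The alternatives changed 1 choice each: the pseudocount (none, or 25), the filter (none, or on the mean over arrays), the scaling (quantile, or a common median), the fit (only the arrays compared, a trend with robust variances, array weights, a replicate block) and the pools (each left out).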

Additional observations from a re-analysis of the deposited data

Results flagged for a closer look

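Of all probe sets tested, 1 had an effect that differed between 3 weeks and 1 week off dox by the test of the difference itself. It has no gene symbol here. Its log2 difference from littermates was -0.21 at 3 weeks and 1.84 at 1 week, so that the effect at 3 weeks minus that at 1 week was -2.05 (SE 0.24, adjusted p = 0.0201). Age and cohort went with the time off dox.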

How the results depend on the processing

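The 886 higher, 176 lower and 1 difference of effects were recounted under each alternative, and no called probe set changed direction. Array weights moved the counts the most, to 2662, 1475 and 3. With only the arrays of the comparison they were 1123, 344 and 9, with quantile normalization 1031, 305 and 23, and with centring on the median 711, 185 and 0. No pseudocount gave 809, 159 and 2, and a pseudocount of 25 gave 950, 195 and 0. No filter gave 695, 103 and 0, a filter on the mean 844, 195 and 0, and a trend with robust variances 919, 222 and 1. With 1 pool of the 3 week groups left out, 513 to 732 were higher, fewest without VP16-CREB pool 3, and 71 to 122 were lower. The difference of effects was called for 0 to 5 with any 1 pool left out, 5 without the second VP16-CREB pool at 1 week. The replicate block gave 726, 133 and 0 and kept 789 of the 1062 calls. Same-numbered pools had correlations of -0.164, -0.228 and 0.218 of their deviations, and pools of unlike number had -0.284 to 0.338. With 3 pools per group these values cannot say whether same-numbered pools were paired. Of the 121 called probe sets among those named by rule, 79 were never lost, 69 of them under all 16 alternatives and 10 under the 15 that tested them (the filter on the mean left them out), and 42 were lost under at least 1, each of them without at least 1 pool. The medians of the lists of glycolysis, tricarboxylic acid cycle, creatine, bHLH, homeobox, nuclear receptor, phosphoinositide, MAP kinase and cytoskeleton genes, all near 0, changed sign under some alternatives. The median log2 difference of all probe sets was -0.0138, against -0.0395 with quantile normalization and -0.0869 with centring.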
